A study of Mus musculus with 12 samples.

Results

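The synaptotagmin genes Syt1, Syt2, Syt4, Syt5, Syt7, Syt11, Syt13, Syt15 and Syt17 and the synaptotagmin-like gene Sytl2 were followed through bulk RNA sequencing of oligodendrocyte precursor cells (OPCs) and neurons from the mouse cortex. These 10 genes are a listed set, taken by symbol from the 30165 genes of the OPC table and the 17918 genes of the neuron table. The set was chosen by its values in the comparison of knockout with control OPCs, which were already known, so the OPC differences are described without a test. All 10 genes passed the filter on low counts in both tables.

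The study compared control mice (ctl) with double knockout mice (dKO), in which NG2-CreERT2 deletes floxed exons 14 and 15 of Cacna1c and floxed exon 2 of Cacna1d in NG2-expressing cells after tamoxifen (100 mg/kg on postnatal days 7 and 8). NG2 is also made by pericytes, and neurons are not targeted by this Cre. Each group held 3 libraries, each from the pooled cells of 2 mice. OPCs were enriched with beads against CD140, NG2 and O4, and neurons were what remained once cells carrying O4, CD11b, CD31 or ACSA-2 had been removed. The age at isolation, and whether the ctl mice carried Cre or floxed alleles, are not given in the sources used here.

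Synaptotagmins are membrane proteins with a pair of C2 domains that face the cytosol and bind phospholipids and SNARE proteins. In Syt1, Syt2, Syt5 and Syt7 these domains bind calcium and couple calcium entry to vesicle fusion, while Syt4 and Syt11 have a C2 domain that lost this ability, and Syt13 and Syt15 are not regarded as calcium sensors. Sytl2 encodes Slp2, which carries C2 domains and an N-terminal domain that binds Rab27 on vesicles. Cacna1c and Cacna1d encode the pore subunits of L-type calcium channels, which open upon depolarization.

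The total count was 14935963 to 19812274 per OPC library and 15052892 to 16344600 per neuron library. The labels of the fractions were only partly borne out by markers. In the OPC fraction the summed level of 12 oligodendrocyte markers was 68162 to 80561 CPM (reads scaled by library size) in ctl libraries, against 1592 to 2549 CPM for 12 OPC markers. In the neuron fraction 10 endothelial markers summed to 23154 to 27100 CPM in ctl libraries, against 857 to 1278 CPM for the neuron markers. No marker was at 0 in every library. In OPC dKO replicate 2 the Y-linked gene Ddx3y was at 0 CPM and Xist at 778 CPM, whereas the other OPC libraries had 123 to 143 CPM of Ddx3y. Among neurons, Ddx3y was at 202 CPM in ctl replicate 1 and 162 CPM in dKO replicate 1 and below 1 CPM elsewhere.

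The targeted genes had lower means in dKO OPCs but were still present. Cacna1c averaged 407 normalized counts in ctl and 300.4 in dKO OPCs, with SDs of 33.1 and 43.5 over 3 libraries, without overlap and with an adjusted p of 0.349 (edgeR). Cacna1d averaged 232 (SD 36.1) and 159 (SD 69.9), with overlapping groups. These are counts over the whole gene, not over the floxed exons. In neurons both groups overlapped for each gene.

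Syt11 was by far the most abundant synaptotagmin in both fractions. Levels are given as FPKM, the deposited values scaled by gene length and depth, so that genes can be set side by side. In ctl OPCs Syt11 reached 298 ± 63.3 FPKM (SD, n = 3), which was 91.8% of the sum over the 10 genes. Sytl2 followed at 18.9 ± 2.17 FPKM, 15.8-fold below Syt11 and well apart from the next gene. Syt15, Syt5, Syt7 and Syt17 came next at 1.88 ± 0.602, 1.71 ± 0.426, 1.54 ± 0.299 and 0.933 ± 0.285 FPKM, and each neighbour in this order overlapped with the next. Below them lay Syt4 (0.600 ± 0.0700 FPKM) and Syt13 (0.550 ± 0.0668 FPKM), which overlapped, then Syt1 (0.355 ± 0.0566 FPKM) and Syt2 (0.127 ± 0.0340 FPKM), each apart from its neighbours. The fast calcium sensors of neurotransmitter release were therefore the lowest of the set in this fraction.

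**Figure D1:**
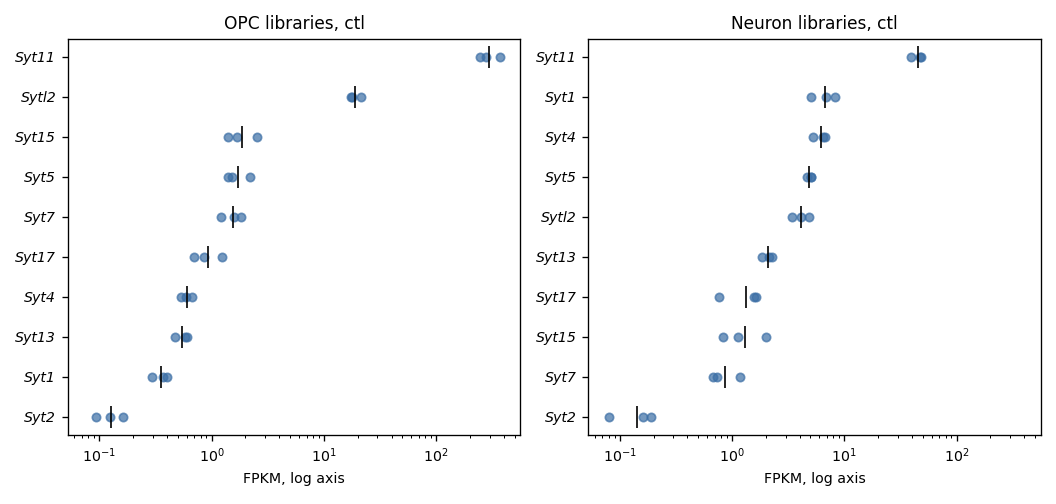
Level of each synaptotagmin gene in the ctl libraries of OPCs (left) and neurons (right), in FPKM on a log axis, with points for the 3 libraries and a bar for their mean. Syt11 lies at the top in both fractions, Sytl2 is second in OPCs, and Syt1 moves from ninth of the order in OPCs to the place after Syt11 in neurons.

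In ctl neurons Syt11 stood at 45.0 ± 4.84 FPKM (SD, n = 3) and made up 62.0% of the sum. Syt1 (6.74 ± 1.60 FPKM) and Syt4 (6.15 ± 0.758 FPKM) followed with overlapping ranges, then Syt5 (4.88 ± 0.219 FPKM) and Sytl2 (4.14 ± 0.711 FPKM), which also overlapped. Syt13 was at 2.09 ± 0.213 FPKM, apart from both neighbours. Syt17, Syt15 and Syt7 lay at 1.32 ± 0.485, 1.31 ± 0.604 and 0.867 ± 0.273 FPKM, each overlapping with the next, and Syt2 was lowest at 0.143 ± 0.0569 FPKM. The tables were counted in different ways, so the order within a fraction can be read but no level was tested between fractions.

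The promoters of Syt15, the member with the largest OPC difference, and Syt11, the most abundant member, are shown for the letters they hold, since no binding or accessibility data accompany these libraries. RefSeq promoter windows on GRCm38.p6, from 250 bases before to 50 bases after the annotated start, were at hand for 4 of the 10 genes. The windows are read 5′ to 3′ on the strand of the gene, and capitals mark the GC box GGGCGG on either strand. Syt15 lies at chr14:34219796-34220095 on the plus strand, and Syt11 at chr3:88772550-88772849 on the minus strand.
Syt15: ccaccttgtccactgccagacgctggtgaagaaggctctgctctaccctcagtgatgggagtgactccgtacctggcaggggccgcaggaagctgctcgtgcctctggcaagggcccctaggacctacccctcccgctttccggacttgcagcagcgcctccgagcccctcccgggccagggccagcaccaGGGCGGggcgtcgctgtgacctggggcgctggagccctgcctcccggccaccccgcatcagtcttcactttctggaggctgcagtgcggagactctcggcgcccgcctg
Syt11: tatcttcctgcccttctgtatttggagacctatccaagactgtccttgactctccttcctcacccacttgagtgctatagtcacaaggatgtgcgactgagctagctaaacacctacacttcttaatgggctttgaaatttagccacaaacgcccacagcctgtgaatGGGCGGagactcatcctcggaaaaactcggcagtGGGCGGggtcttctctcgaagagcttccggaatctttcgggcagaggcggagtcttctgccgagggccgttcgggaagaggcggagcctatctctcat
The Syt15 window is 69.0% G and C with 1 GC box, and the Syt11 window 53.0% with 2, against a median of 52.7% over all 32851 promoters. A GC box was found in 35.7% of all promoters. The cAMP response element TGACGTCA, the E-box CACGTG and the TATA box TATAAA, present on either strand in 1.79%, 7.15% and 13.6% of promoters, were not among the letters of these windows.

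In OPCs, 5 of the 10 genes had ctl and dKO libraries that did not overlap, 3 of them higher in dKO (Syt1, Syt4, Syt13) and 2 lower (Syt15, Sytl2). Over all genes tested, groups did not overlap for 17.0%, with 7.41% higher and 9.55% lower in dKO. Without dKO replicate 2, a setting chosen after seeing the data, the same 5 genes did not overlap, beside 30.4% of all genes. By log2 fold change 5 of the 10 genes were above 0, as were 50.8% of all genes. The values of this comparison chose the genes, so nothing is read from these counts. The median log2 fold change of the 10 genes was 0.01, and that of all genes tested was also 0.01. In bulk samples, fewer cells of a type and less RNA per cell cannot be told apart.

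Syt15 showed the largest difference of the set. Its normalized count, after scaling libraries by edgeR's TMM method, was 234, 126 and 153 in ctl replicates 1 to 3 and 57.7, 52.6 and 95.2 in the dKO replicates. The groups did not overlap, and ctl replicate 1 was the highest of all. The ctl mean of 171 ± 56.5 lay above the dKO mean of 68.5 ± 23.3 (SD, n = 3 libraries each), with a fitted log2 fold change of -1.33 and a standard error of 0.32, which is 2.51-fold. The counts behind these values ran from 58 to 268 reads. The log2 fold change was -1.03 without ctl replicate 1 and -1.65 without dKO replicate 3, the extremes over the libraries left out in turn.

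Syt15 (ENSMUSG00000041479) lies on chromosome 14 from 33941552 to 33952377 in the deposited coordinates, 3.73 Mb from the targeted gene Cacna1d. Among the other 96 genes tested within 5 Mb of Cacna1d, 33 did not overlap between groups in OPCs (34.4%), 10 higher and 23 lower in dKO, beside 17.0% of all genes (7.41% higher, 9.55% lower). In neurons this was so for 15 of 72 genes (20.8%), where 15.3% of all genes tested did not overlap, 7.50% higher and 7.82% lower. Within 0.5 Mb of Syt15, 7 of the other 16 genes tested in OPCs did not overlap, 5 of them higher and 2 lower, a count to be read beside the same shares. The lower ones were Anxa8, an annexin gene (60.8 ± 25.2 against 12.4 ± 1.08, SD, n = 3 each, log2 fold change -2.28), and Ldb3, which encodes a PDZ and LIM domain protein of the Z-disc (418 ± 37.4 against 125 ± 30.4, SD, n = 3 each, log2 fold change -1.75). These neighbours were singled out after their values had been seen. What the position has to do with the difference was not tested.

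**Figure D2:**
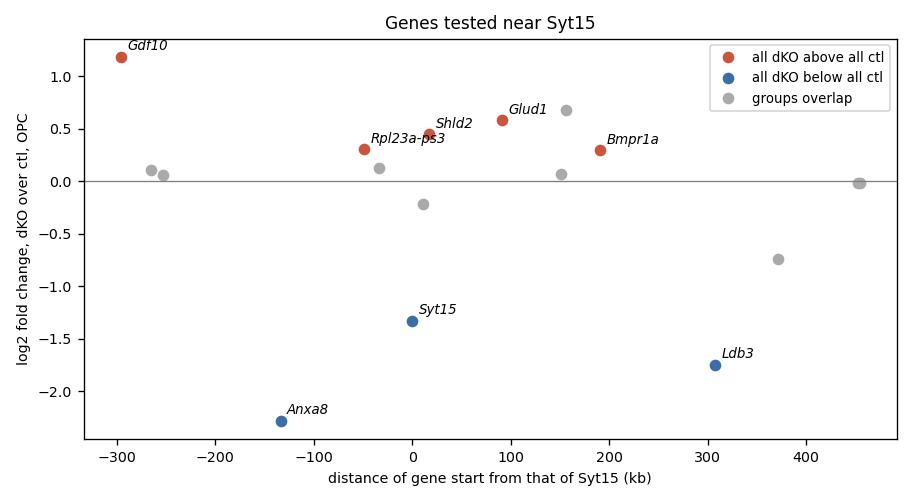
Log2 fold change in OPCs, dKO over ctl, of the 17 genes tested within 0.5 Mb of Syt15, Syt15 included, against the distance of each gene's start from that of Syt15 in kb. Blue genes have every dKO library below every ctl library and red genes the reverse, and named lower genes (Anxa8, Syt15, Ldb3) lie between genes that were higher or overlapped.

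Sytl2 (ENSMUSG00000030616, chromosome 7 from 89951460 to 90059927) was the other gene with lower dKO libraries, and is the second most abundant of the set. Normalized counts were 4351, 5199 and 4338 in ctl replicates 1 to 3 and 3085, 3343 and 2319 in the dKO replicates. Every dKO library was below every ctl library. The means were 4629.6 ± 493 (SD, n = 3) and 2916 ± 532 (SD, n = 3), a 1.59-fold lower level in dKO (log2 fold change -0.67, standard error 0.16). Leaving out single libraries gave log2 fold changes from -0.78 to -0.54. In FPKM, Sytl2 went from 18.9 ± 2.17 to 11.9 ± 2.19 (SD, n = 3 each). Of 12 oligodendrocyte markers, 10 were lower in dKO OPCs, with sums of 50255 to 86799 CPM in dKO against 68162 to 80561 CPM in ctl libraries. The 2 markers above 0 were Mbp (log2 fold change 0.28) and Mobp (0.21), which are abundant, while Aspa, Mog, Opalin and Ugt8a were lower without overlap (4 of 12, beside 9.55% of all genes), and the list had a median of -0.43. The sum was lowest in dKO replicate 3, which was also lowest for Sytl2, and highest in dKO replicate 1. The part of these cells in the Sytl2 difference was not tested.

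Syt1, Syt4 and Syt13 were higher in dKO OPCs, all from low levels. Syt1, the calcium sensor for fast synchronous release, had normalized counts of 55.1, 58.4 and 42.8 in ctl and 97.7, 105 and 80.2 in dKO libraries, a 1.81-fold higher mean (log2 fold change 0.86, standard error 0.25). Syt4, which does not act as a fast calcium sensor, had 36.7, 40.5 and 46.0 in ctl and 69.4, 67.1 and 71.7 in dKO libraries (1.69-fold, log2 fold change 0.76, standard error 0.25). The 3 dKO libraries were close together for Syt4, with a mean of 69.4 ± 2.27 against 41.1 ± 4.64 in ctl (SD, n = 3 each). Syt13, an atypical member, had 38.5, 39.3 and 31.3 in ctl and 62.5, 77.1 and 56.7 in dKO libraries (1.80-fold, log2 fold change 0.85, standard error 0.27). With single libraries left out, their log2 fold changes ran from 0.68 to 0.95.

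**Figure D3:**
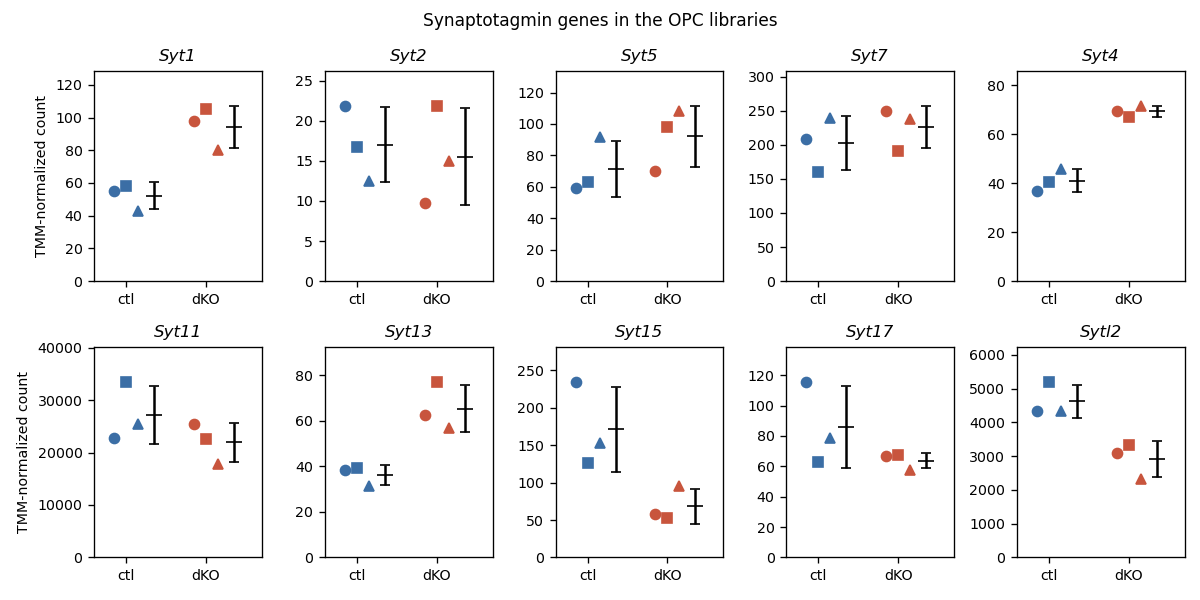
TMM-normalized counts of the 10 synaptotagmin genes in OPC libraries, with circles, squares and triangles for replicates 1, 2 and 3 and black bars for the mean ± SD of the 3 libraries. The groups are apart for Syt1, Syt4 and Syt13 (dKO higher) and for Syt15 and Sytl2 (dKO lower), and overlap for the other 5 genes.

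Most marker genes of other cells had higher means in dKO OPCs. Of the 12 OPC markers, 9 were higher by direction too, with a median log2 fold change of 0.52. Their sums overlapped, at 1592 to 2549 CPM in ctl and 1479 to 2839 CPM in dKO libraries. At an unadjusted p under 0.05 (edgeR), where 6.27% of all genes were higher, 0 of 15 neuron markers, 12 of 12 microglia markers and 9 of 10 astrocyte markers were higher. By DESeq2's adjusted p 10 microglia and 5 astrocyte markers passed, beside 1.69% of all genes. By direction alone 13 neuron markers were higher, with overlapping sums of 246 to 299 CPM in ctl and 282 to 369 CPM in dKO libraries. The microglia markers had sums of 271 to 327 CPM in ctl and 349.7 to 1091 CPM in dKO libraries, which did not overlap. The astrocyte markers, all 10 higher by direction, summed to 1103 to 1987 CPM and 1920 to 5795 CPM, which overlapped. So did the sums of the endothelial (10 of 10 higher by direction) and the pericyte and mural markers (7 of 8). Their part in the higher counts of Syt1, Syt4 and Syt13 was not tested.

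The other 5 genes overlapped between ctl and dKO OPCs. Syt11 was lower by a log2 fold change of -0.31 (standard error 0.21), from 27223 ± 5543 to 21929 ± 3796 normalized counts (SD, n = 3 each), and by -0.14 without ctl replicate 2. Syt7, a calcium sensor of slow release and of lysosome exocytosis, had 203 ± 40.2 in ctl and 226 ± 30.9 in dKO OPCs (log2 fold change 0.16, standard error 0.20, and 0.01 to 0.28 with single libraries left out, lowest without ctl replicate 2 and highest without ctl replicate 3). Syt5, found on dense-core vesicles, had 71.5 ± 17.8 and 92.1 ± 19.5 (log2 fold change 0.37, standard error 0.28, and 0.58 without ctl replicate 3, 0.23 without dKO replicate 3). Syt17 had 85.7 ± 26.9 and 63.8 ± 5.23, with ctl replicate 1 at 115 as the highest value, a log2 fold change of -0.43 that was -0.15 without that library. Syt2, a close relative of Syt1, had only 10 to 25 reads per library. It overlaps Ppp1r12b on the opposite strand, which had a mean of 1308 reads. The kit named in the labels, a TruSeq RNA kit, is not one that marks strand, and no counting by strand is stated, so reads of the overlapping stretch may come from either gene.

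The genes whose profile over the 6 OPC libraries was most like that of Syt15, by Pearson correlation of log2 CPM, were Ap1g1 (0.991), Gm17193 (0.991), Gm33148 (0.990), Iqcb1 (0.989) and 4732496C06Rik (0.987). For Sytl2 they were Abhd18 (0.999), Sgk2 (0.997), Onecut2 (0.995), 1700060J05Rik (0.994) and Cacnb4 (0.994). All of these 10 genes were lower in dKO OPCs, from a log2 fold change of -0.18 for Ap1g1 to -1.88 for Gm33148. Cacnb4, which encodes an auxiliary beta subunit of voltage-gated calcium channels, had a log2 fold change of -0.45. The correlations rest on libraries that share the group difference and are descriptions.

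In neurons, which served here as the comparison that did not choose the genes, 0 of the 10 passed an adjusted p of 0.05 over the 14352 genes tested with edgeR, and 0 passed at an unadjusted p under 0.05, where 9.00% of all genes did. At that level 4.96% of all genes were higher and 4.04% lower. DESeq2 gave an adjusted p under 0.05 for 0 of the 10 and for 88 of all genes tested (0.613%). Of the 10 genes, 8 were higher in dKO neurons, while 51.1% of all genes were. Without dKO replicate 1 only 4 of the 10 had a higher mean in dKO. That library had the highest normalized count of all 6 neuron libraries for 8 of the 10 genes, the exceptions being Syt15 and Sytl2.

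Syt1 showed this most plainly. Its normalized counts were 577, 359.9 and 505 in ctl replicates 1 to 3 and 1503, 362 and 537 in the dKO replicates. Only dKO replicate 1 lay above the ctl libraries. The log2 fold change was 0.74 (standard error 0.47, 95% confidence interval -0.34 to 1.81, adjusted p = 0.678, edgeR), and -0.10 without that library. Syt5, at 322 in dKO replicate 1 and 72.9 to 124 in the other 5 libraries, went from 0.50 to -0.42, Syt4 from 0.24 to -0.47 (unadjusted p = 0.0496, adjusted p = 0.603, edgeR) and Syt7 from 0.21 to -0.21. Syt13 had the smallest p among the 10 genes, with an estimate of 0.84 (standard error 0.40, interval -0.07 to 1.75, adjusted p = 0.567, edgeR), which was 0.30 without dKO replicate 1. Syt17 went from 0.73 to 0.16. Without dKO replicate 2, the lowest dKO library for Syt1, Syt13 and Syt17, the log2 fold changes were 1.08 for Syt1, 1.15 for Syt13 and 1.19 for Syt17, each at an unadjusted p under 0.05 but with adjusted p-values of 0.421, 0.393 and 0.420 (edgeR).

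**Figure D4:**
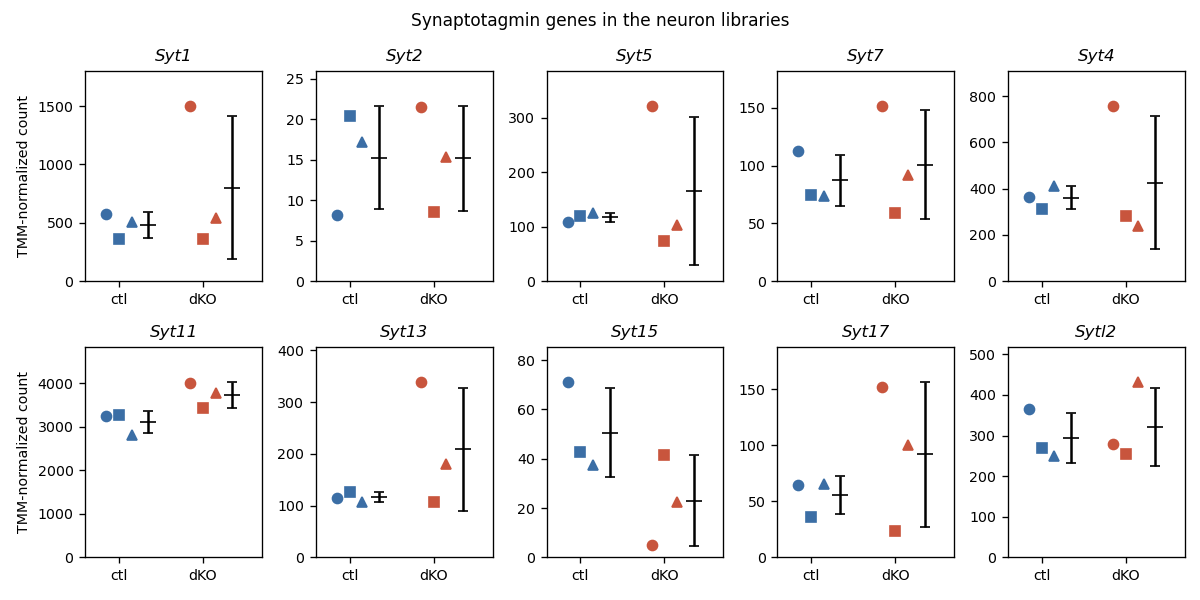
TMM-normalized counts of the 10 synaptotagmin genes in neuron libraries, with circles, squares and triangles for replicates 1, 2 and 3 and black bars for the mean ± SD of the 3 libraries. The circle of dKO replicate 1 lies far above the other libraries for Syt1, Syt4, Syt5 and Syt13 and is the lowest point for Syt15.

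The markers of the same library also stood apart. In dKO replicate 1 the neuron markers summed to 1976 CPM, against 857 to 1526 CPM in the other neuron libraries, and the endothelial markers to 11960 CPM, against 20498 to 27100 CPM. Over the group, 12 of 14 neuron markers were higher and 10 of 10 endothelial markers lower in dKO neurons. All 12 oligodendrocyte and all 12 microglia markers were lower by direction too, with overlapping sums that were highest in ctl replicate 1 (4217 CPM against 796 to 2437 CPM, and 1929 against 404 to 1073 CPM). The endothelial sums, 23154 to 27100 CPM in ctl and 11960 to 20935 CPM in dKO libraries, did not overlap, whereas the neuron marker sums did. The part of this shift in the synaptotagmin values was not tested.

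Syt11 was the 1 gene of the 10 whose neuron groups did not overlap, against 15.3% of all genes tested. It had 3241, 3279.8 and 2821 normalized counts in ctl and 4006, 3422 and 3773 in dKO neurons. The log2 fold change of 0.26 (standard error 0.14, interval -0.05 to 0.58) had an adjusted p of 0.596 (edgeR), and it stayed between 0.20 and 0.32 with any single library left out. Its OPC difference of -0.31 had the other sign, and no test of the difference between fractions was run.

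Syt15 had a lower mean in dKO neurons as well, but the groups overlapped. The normalized counts were 71.1, 42.8 and 37.5 in ctl and 4.90, 41.7 and 22.5 in dKO libraries. The lowest value was that of dKO replicate 1. The log2 fold change was -1.13 (standard error 0.70, interval -2.73 to 0.48, adjusted p = 0.669, edgeR). It was -0.65 without dKO replicate 1, and leaving out dKO replicate 2 gave -1.87 at an unadjusted p of 0.0426 and an adjusted p of 0.440 (edgeR). The neuron table splits Syt15 over 3 RefSeq transcripts. The main one took 46.1% ± 12.3 of the gene's estimated counts in ctl and 90.9% ± 8.16 in dKO neurons (SD, n = 3 each). The second one had estimated counts of 25.4, 18.1 and 10.8 in ctl and 0, 0 and 2.53 in dKO libraries. With so few reads, the split between transcripts is weakly determined.

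Sytl2 groups overlapped in neurons. Its normalized counts were 366, 268 and 249.7 in ctl and 279, 255 and 432 in dKO neurons, and the log2 fold change was 0.13 (standard error 0.26, interval -0.46 to 0.71, adjusted p = 0.908, edgeR). It was -0.14 without dKO replicate 3, and no test between fractions was run. Syt2 was unresolved at 8.12 to 21.6 normalized counts per library (log2 fold change -0.01, interval -1.45 to 1.43).

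**Figure D5:**
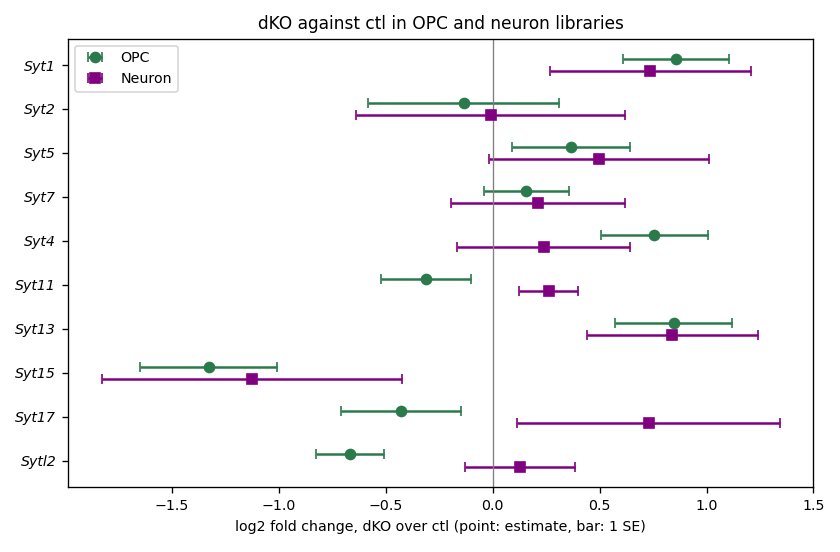
Log2 fold change, dKO over ctl, of the 10 synaptotagmin genes in OPCs (green circles) and neurons (purple squares), with bars of 1 standard error. Syt15 lies below 0 in both fractions, Syt1, Syt4, Syt5, Syt7 and Syt13 lie above 0 in both (in neurons Syt1, Syt4, Syt5 and Syt7 lie below 0 without dKO replicate 1), and Syt11, Syt17 and Sytl2 have opposite signs. The comparisons use separate libraries and separate tables.

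The neuron table also gives the split over transcripts for the other genes. One transcript held 93.7% of the Syt11 counts over the neuron libraries, with 92.6% to 94.5% per library, and 98.4% of those of Syt4. For Syt1 the leading transcript held 63.3% of the counts among 9 transcripts, with 50.6% to 88.9% per library. Sytl2 was spread over 14 transcripts, of which the leading one held 25.6%.

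Of 11 other synaptotagmin and synaptotagmin-like genes tested in OPCs, 0 passed the adjusted threshold, which 0.00576% of all genes passed. At an unadjusted p under 0.05 (edgeR) 2 were higher and 0 lower, where 6.27% of all genes were higher and 5.27% lower. These were Sytl1, another Rab27-binding protein, with a mean of 12.4 ± 1.66 in ctl and 38.6 ± 16.4 in dKO OPCs (log2 fold change 1.64, adjusted p = 0.296), and Syt6, with 8.92 ± 7.96 and 25.9 ± 0.772 (1.58, adjusted p = 0.383). Sytl1 and Sytl2 had opposite signs. In neurons 0 of 11 passed, with 1 gene on each side at an unadjusted p under 0.05, where 4.96% of all genes were higher and 4.04% lower. Syt9, a fast calcium sensor, had 108 ± 40.4 in ctl and 222 ± 44.7 in dKO neurons (log2 fold change 1.04, adjusted p = 0.521), and Sytl5 had 109 ± 53.7 and 55.1 ± 7.73 (-0.98, adjusted p = 0.538). All errors here are SDs with n = 3, and the p-values come from edgeR.

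Partners of these proteins were examined in the same way. Among 10 Rab27 and synaptotagmin-like partners in OPCs, 0 passed the adjusted threshold and 2 were higher at an unadjusted p under 0.05 (6.27% of all genes), Mlph (log2 fold change 1.17) and Exph5 (1.33), both genes of Rab27 effectors. In neurons Rab3d, a Rab of secretory granules, was the 1 gene of 10 lower at that level (-0.38, adjusted p = 0.548, edgeR), beside 4.04% of all genes. A list of other genes for tandem C2 proteins also held Rph3al, whose protein lacks C2 domains. Of this list, 8 genes were tested in each fraction, with Doc2b in OPCs only and Doc2a in neurons only. An unadjusted p under 0.05 (edgeR) was reached by 0 of them. Doc2g (log2 fold change -0.86) was the 1 of 8 without overlap in OPCs, beside 17.0% of all genes.

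Of 17 fusion machinery genes tested in OPCs, 3 were higher and 1 lower at an unadjusted p under 0.05, with 0 past the adjusted threshold, where 6.27% of all genes were higher and 5.27% lower. The complexin genes Cplx1 (log2 fold change 0.77), Cplx2 (0.48) and Cplx3 (1.41), whose proteins clamp and promote SNARE-driven fusion together with synaptotagmin, were higher, and Stxbp2, a Munc18 protein of non-neuronal secretion, was lower (-0.47, adjusted p = 0.288, edgeR). In neurons 0 of 18 reached an unadjusted p under 0.05. Among the vesicle partners in OPCs, Syn2, a synapsin gene, had a log2 fold change of 0.71 and Sv2a, a vesicle protein that binds synaptotagmin, one of -0.45 (adjusted p = 0.380, edgeR), both at an unadjusted p under 0.05. In neurons Syn1, another synapsin gene, was the 1 of 11 at that level (0.66, adjusted p = 0.521, edgeR), beside 4.96% of all genes higher.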

How the data were processed

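RNA of OPCs and neurons was sequenced from 12 libraries (3 per group), grouped by sample title. The OPC table that the authors deposited holds raw counts of reads per gene (HISAT2 2.0.5, featureCounts 1.5.0-p3) and FPKM values. For neurons the authors deposited estimated counts and FPKM per transcript for 66298 transcripts, and how these were made is not given in the sources used here. Estimated counts were summed per gene and rounded, and FPKM values were summed per gene. Symbols were found for 17794 genes through RefSeq. The authors' columns of fold changes and p-values were not used. The submitters' processing notes name mm39 while the methods name GRCm38. Since 2.09% of the identifiers in GENCODE M21 on GRCm38 have the same start and end there, positions are given as deposited.

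After TMM normalization, genes whose mean count reached 10 (17364 in OPCs, 14352 in neurons) were compared with edgeR 4.0.16 in R 4.3.3 (quasi-likelihood test, genotype as the term, Benjamini-Hochberg adjustment at 0.05). Standard errors are the log2 fold change over the square root of F, and intervals use the t quantile. DESeq2 1.42.0, other normalization and filters, a replicate block and each library left out were alternatives. On simulated data with a log2 change of 2, edgeR called 185 of 188 changed genes in OPCs and 193 of 193 in neurons, with 9 unchanged genes called in each. The simulation gave every gene the same dispersion and used a change larger than that of any of the 10 genes. It therefore does not show how often smaller changes would be found. Replicates differed by more than sampling noise (chi-square per gene at least 15.9). Each p-value weighs the difference between groups against the spread between libraries of pooled mice, not between single mice. With 3 against 3 libraries, an exact permutation test cannot go below 0.1.

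The 10 genes and all lists were chosen with earlier results of these data known. Named beyond the 10 genes are up to 3 of each list with the smallest unadjusted p in neurons or, without overlap in OPCs, the largest change, the 5 genes most like Syt15 and Sytl2, and the targeted genes. Cplx2, Mlph, Doc2a, Doc2b, Rph3al, Ppp1r12b, Anxa8 and Ldb3, the oligodendrocyte markers and the sex-linked genes were added after their values were seen.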

Additional observations from a re-analysis of the deposited data

How the results depend on the processing

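The number of genes past the adjusted threshold in OPCs, 1 with edgeR, was 293 with DESeq2, 87 with no filter on low counts, and 1 to 199 with single libraries left out (199 without dKO replicate 2, 2 without dKO replicate 3). With the replicate number as a block it was 27 in OPCs and 0 in neurons. Deviations of same-numbered libraries correlated at -0.11 to 0.15 in OPCs and -0.08 to 0.17 in neurons, not over 0.1 for every pair, and numbers 2 and 3 in OPCs and 1 in neurons correlated best with their own number, so the numbers were not taken to pair the samples. The block lowered neuron Syt1 to 0.50, Syt4 to 0.05, Syt5 to 0.19, Syt7 to 0.14, Syt13 to 0.69 and Syt17 to 0.46, and Syt15 to -1.34. In neurons the count was 0 with edgeR, with 1292 genes at an unadjusted p under 0.05, 0 in every other edgeR fit and 88 with DESeq2.

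With single libraries left out, the log2 fold changes of the 10 genes kept their sign in OPCs except for Syt2, which was -0.47 to 0.11 (0.09 without ctl replicate 1, 0.11 without dKO replicate 1). In neurons the ranges were -0.10 to 1.08 for Syt1, -0.47 to 0.53 for Syt4, -0.42 to 0.85 for Syt5 and -0.21 to 0.48 for Syt7, each lowest without dKO replicate 1. Sytl2 ran from -0.14 (without dKO replicate 3) to 0.31, and Syt2 from -0.35 to 0.28, with positive values when dKO replicate 2 (0.28), ctl replicate 2 (0.26) or ctl replicate 3 (0.08) was left out. The cause was not tested. In an alternative chosen after seeing the data, neurons without dKO replicate 1, 3 of 10 genes did not overlap (Syt4 and Syt5 lower, Syt11 higher, against 1 with all libraries), beside 26.5% of all genes, and 4 had a higher dKO mean (against 8). Depth limits Syt2 most in OPCs (10 to 25 reads per library), and Syt2 and Syt15 in neurons. The planned comparison of protein sequences was not run.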
